A study of Homo sapiens with 4 samples.

Results

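CEBPB regions that lie close together along the genome were examined as groups, with the group and its spacing as the unit of description. The groups were built from the authors' deposited table of reproducible regions, which lists intervals found in both ChIP samples at a global irreproducible discovery rate (IDR, a measure of how well ranks match between replicates) of at most 0.05. Distinct regions on chromosomes 1 to 22 and X were chained whenever the gap from the end of one to the start of the next was at most 12500 bp, and chains of 5 or more regions were kept. This gave 751 of 25602 regions (2.93%) in 135 groups. Another 9635 regions (37.6%) lay in 4154 groups of 2 to 4, and 15216 regions (59.4%) stood alone. The members were chosen by their positions and by the IDR of the replicate pair, which is computed from ChIP enrichment in the same samples. Fold, fragments and spacing are therefore given as a description, and the only tests compare fragments between the replicates.

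CEBPB, a member of the C/EBP family, is a transcription factor with a basic leucine zipper. It binds DNA as a dimer, with other C/EBP proteins or with more distant leucine zipper partners, and is known for its part in inflammatory, acute phase and differentiation programmes. In epithelial cells many of its binding sites are known to lie in enhancers away from promoters, and enhancers often occur in runs along a stretch of chromatin, where several factors bind side by side.

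Chromatin of 2 CEBPB ChIP samples and 2 input samples came from NCM460, an established human colon epithelial cell line, which was grown in serum-containing medium with antibiotics and given no treatment named in the labels. The design text describes the replicates as independent experiments, and the sources used here do not say whether the line is a single clone. Peak lists were analysed for the ChIP samples, with 75169 peaks in replicate 1 and 97829 in replicate 2. The inputs enter only through the background of the peak caller. Fold is therefore ChIP over input, whereas the fragments defined below are ChIP counts not divided by input.

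The terms used for strength were these. Fold is the authors' enrichment over input at the strongest summit of a region. Fragments are the number of extended ChIP reads piled up at the tallest summit, recovered as whole numbers from the deposited fold and p-value. Background is the input signal expected at the summit with the highest fold, in fragments on the scale of the caller. In regions with several summits, the tallest summit and that with the highest fold can differ. The largest pileups were 299 fragments in replicate 1 and 312 in replicate 2. Positions are hg19, counted from 1. No gene annotation of that build was used here, so no group is assigned to a gene, and genes are named only as known residents of the cytogenetic band, where they can lie far from the group.

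Groups of exactly 5 regions made up most of the set, with 87 of 135. A further 30 groups held 6 regions, 11 held 7, 4 held 8 and 3 held 9. Just outside the size limit lay 238 groups of 4. Just inside the gap limit, the widest gaps within groups were 12468 and 12428 bp, and just outside it the nearest regions beyond a group lay 12599 and 12799 bp away. The next region beyond a group lay at a median distance of 41138 bp, where the rule fixes a distance above 12500 bp. Of the 270 sides, 18 had the next region within 15 kb and 74 within 25 kb, and 47 of the 135 groups contained a gap of more than 11 kb, so that the outline of these groups depends on the limit chosen.

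The groups spanned a median of 25325 bp, with quartiles of 18614 and 30452 bp. Most of that length was not covered by regions. The regions themselves took up a median of 12.4% of the span, with extremes of 5.30% in a group in 7p21.1 and 33.1% in one in 3q26.31. The shortest group, chr9:137622282-137629369 in 9q34.3, packed 5 regions into 7088 bp. Its band carries COL5A1, which encodes a chain of fibrillar collagen V. The next shortest were chrX:9308644-9321071 in Xp22.31 with 12428 bp and chr21:46290287-46303201 in 21q22.3 with 12915 bp, also of 5 regions each. At the other end, the 3 longest groups were all among those with 8 or 9 regions, and they spanned 57902 bp in 14q23.1, 55347 bp in 12q24.31 and 53197 bp in 17q23.1.

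The regions inside a group were not evenly spaced. Over the 616 gaps between neighbours the median was 4438 bp, with quartiles of 1812 and 7719 bp and a shortest gap of 101 bp. In groups of 2 to 4 regions, where the same limit applied, the median was 4699 bp over 5481 gaps. Gaps under 1 kb made up 15.9% of the gaps in groups of 5 or more and 14.9% of those in groups of 2 to 4, and gaps of 10 kb or more made up 12.8% and 13.5%. The spacing of large and small groups was therefore close at every length. Within a single group the coefficient of variation of the gaps had a median of 0.713, and the longest gap held a median of 42.1% of all gap length. The longest gap of a few holds a large share by construction, so this value is a description only.

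The 7 groups of 8 or 9 regions show these features one by one. The longest, chr14:61979126-62037027 in 14q23.1, a band that carries the protein kinase gene PRKCH, held 9 regions with folds of 8.53 to 24.7 in replicate 1 and 9.51 to 24.0 in replicate 2. Its regions summed to 1157 fragments in replicate 1 and 1330 in replicate 2, the highest sums of all 135 groups. Its fold was moderate beside these counts, and its input was high, with a mean background of 7.05 in replicate 1 and 6.11 in replicate 2, against medians over all groups of 3.24 and 3.57. A separate group of 5 regions, chr14:61932866-61947202, ended 31923 bp before it.

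The group chr12:123376401-123431747 in 12q24.31 held 9 regions with mean folds of 20.1 in replicate 1 and 17.3 in replicate 2. Band 12q24.31 carries SCARB1, the receptor for high-density lipoprotein. The strongest of the 9 by mean fold was the fifth, chr12:123402091-123402755, with 27.4 in replicate 1 and 30.5 in replicate 2. The order of the regions was not the same in the replicates. The seventh, chr12:123422042-123422569, had the highest fold of the group in replicate 1 (32.5) and was among the 3 lowest in replicate 2 (12.4), although its fragments were 120 in replicate 1 and 169 in replicate 2.

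The group chr11:65239554-65281373 in 11q13.1, also of 9 regions, was weaker in fold, with means of 16.2 in replicate 1 and 15.0 in replicate 2. Band 11q13.1 carries the genes of the abundant nuclear long non-coding RNAs NEAT1 and MALAT1. Its median gap was 4546 bp, near the 4438 bp of all gaps, and between its regions lay 8 weaker summits in replicate 1 and 10 in replicate 2, from peaks that did not enter the table of reproducible regions. The 12500 bp on either side of the group held none in replicate 1 and 2 in replicate 2.

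Among groups of 8, chr3:30638659-30686457 in 3p24.1 had the highest mean fold over both replicates, with 23.8 in replicate 1 and 20.0 in replicate 2. In replicate 2 alone, the groups of 8 in 1p22.1 and 17q23.1 were higher, with 23.2 and 21.8. Band 3p24.1 carries TGFBR2, the type II receptor of transforming growth factor beta. Its first region, chr3:30638659-30639208, reached a fold of 57.3 in replicate 1 and 27.6 in replicate 2 on 250 and 275 fragments. Its seventh, chr3:30673480-30674084, had 29.3 and 40.0 on 157 and 169 fragments. A pair of strong regions near the opposite ends thus framed 5 weaker ones, whose folds lay between 9.63 and 23.2 in replicate 1 and between 8.60 and 18.3 in replicate 2.

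Band 1p22.1, which carries TGFBR3, the gene of the co-receptor betaglycan, held a pair of groups that contrasted in strength although they lay 32640 bp apart. The group chr1:92329634-92366606 had 8 regions and mean folds of 19.9 and 23.2 in replicates 1 and 2, and its last region, chr1:92365714-92366606, reached 42.2 and 40.4. The group chr1:92267026-92296993 had 5 regions and the lowest mean fold of all groups by the mean of the replicates, with 10.2 and 13.5. In replicate 2 alone some groups were lower, down to 11.9 in 16q24.1. The group chr1:92267026-92296993 was also the only one of the 135 in which no region passed the stricter IDR of 0.01. Its regions had 30 to 51 fragments in replicate 1 and 48 to 83 in replicate 2, whereas the regions of its neighbour had 49 to 181 and 58 to 207.

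The group chr17:57880479-57933675 in 17q23.1 held 8 regions with mean folds of 18.2 and 21.8 in replicates 1 and 2. The band carries MIR21, the gene of the microRNA miR-21, and VMP1, an autophagy gene. The largest gap of any group, 12468 bp, lay here after its second region, and the gap before it was 12231 bp. The 2 strongest regions closed the group, and reached folds of 37.4 in replicate 1 and 32.5 in replicate 2. The last group of 8, chr1:150548601-150587634 in 1q21.3, was even and moderate, with folds of 9.18 to 17.3 in replicate 1 and 12.4 to 24.5 in replicate 2. Band 1q21.3 carries MCL1, which encodes an anti-apoptotic protein of the BCL2 family.

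**Figure D1:**
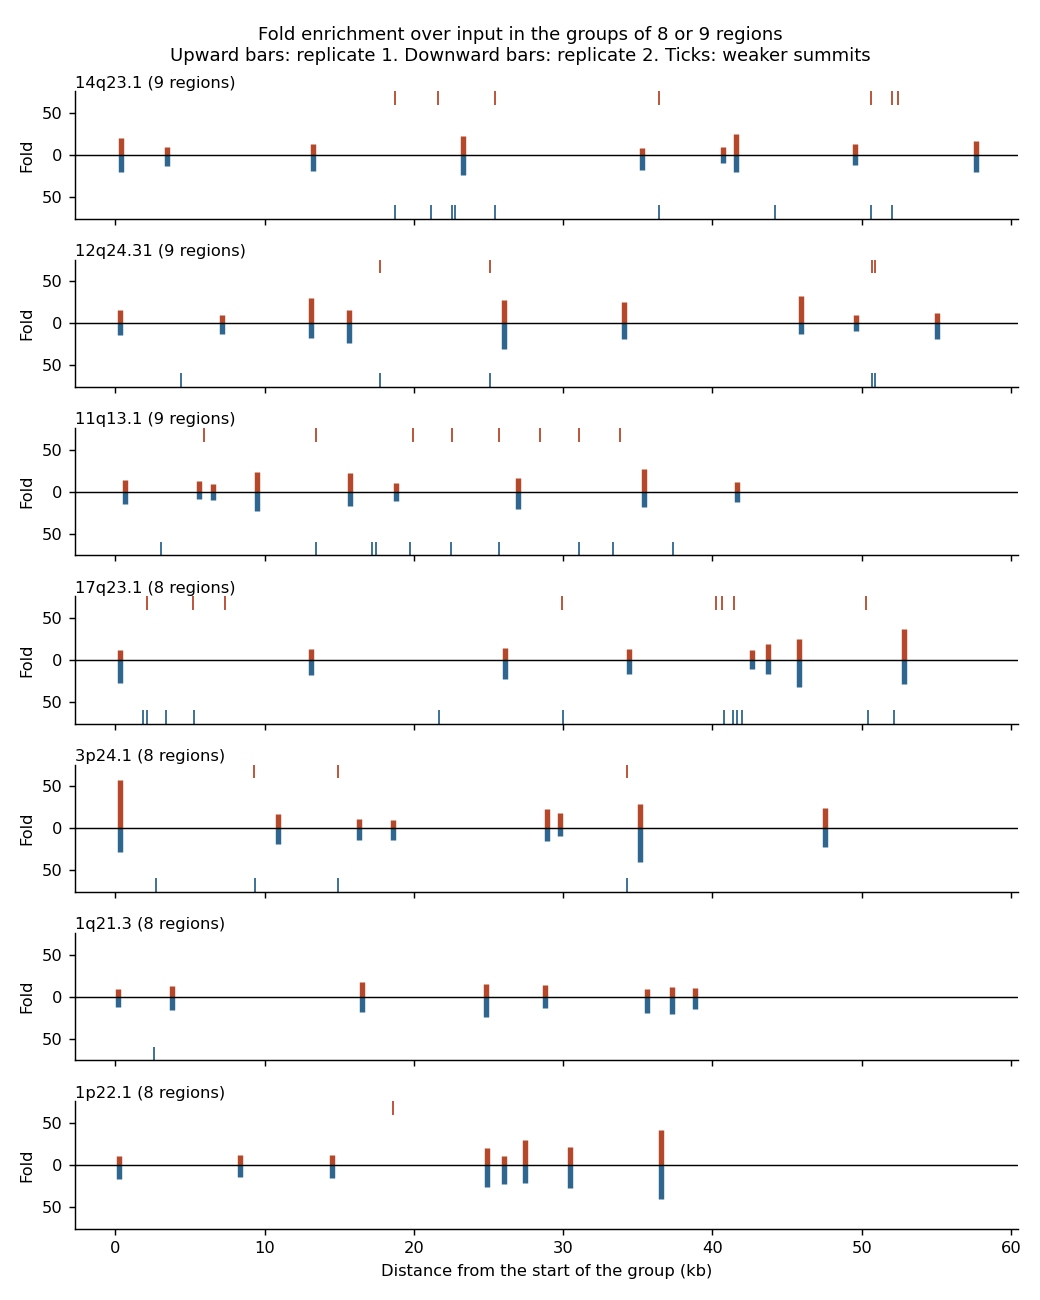
Fold enrichment over input of each region in the 7 groups of 8 or 9 regions, against distance from the start of the group in kb. Upward bars give replicate 1, downward bars replicate 2, and ticks at the upper and lower edges mark weaker summits of replicates 1 and 2. Folds differ widely along most of these groups and least in the 1q21.3 group, and the first region of the 3p24.1 group, at 57.3 in replicate 1, is the tallest bar.

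Across all groups, strength was mixed rather than shared. The strongest region of a group had a median of 2.62 times the fold of its weakest, by the mean of the replicates, with a range of 1.42 to 5.46. The ratio passed 2 in 107 groups, 3 in 44 and 4 in 7. Its median was 2.49 in groups of 5, 2.69 in groups of 6, 2.68 in groups of 7, 3.00 in groups of 8 and 2.52 in groups of 9. Most groups therefore combined regions near the lower end of the table and at least 1 strong region, with a median over the groups of 29.5 for the highest fold. A ratio of highest to lowest tends to grow with the number of regions. The highest of 5 or more is also high by construction, so these values are a description only.

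How far regions of one group resembled each other was described by splitting the variance of log2 fold into parts between and within groups. The SD within groups was 0.67 in replicate 1 and 0.60 in replicate 2 on the log2 scale. The part between groups was estimated at -0.876% of the variance in replicate 1, which means that none was detectable, and at 2.64% in replicate 2. In groups of 2 to 4 it was 2.27% and 1.37%. Knowing which group a region belonged to thus told almost nothing about its fold. Neighbouring regions gave the same picture, with Spearman correlations of fold of -0.03 in replicate 1 and 0.03 in replicate 2 over 616 pairs, which share the library and the surrounding input. The input background was different in this respect: 29.1% and 32.5% of its variance lay between groups, and the background of neighbours correlated with 0.26 and 0.30. Fragments stood in between, with 12.8% of the variance between groups in each replicate.

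**Figure D2:**
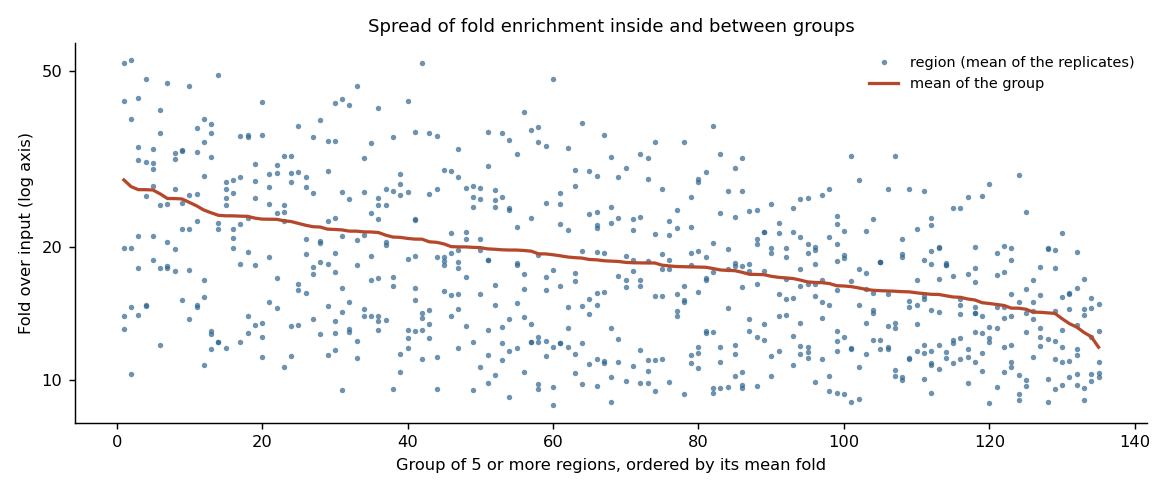
Fold over input (log axis, mean of the replicates) of all 751 grouped regions, with the 135 groups ordered by mean fold along the horizontal axis and the group mean drawn as a line. Regions of a single group differ by a median ratio of 2.62 between strongest and weakest, and the group means run from 28.4 to 11.9.

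The largest contrast within a group was in 16q22.3, a band that carries the transcription factor gene ZFHX3. In chr16:73143909-73172955 the fourth of 5 regions had a fold of 63.9 in replicate 1 and 32.2 in replicate 2. Its neighbour to the right had the lowest mean fold of all 751 grouped regions, with 8.55 and 9.05. The fragments were 168 and 200 at the stronger of them and 20 and 33 at the weaker. In Xp22.2, chrX:9971639-9990276 had a ratio of 4.67, and its first region had 59.5 and 44.6 where the other 4 had at most 17.8 in replicate 1 and 14.6 in replicate 2.

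Most of the strongest groups owed their mean to a few regions. The highest mean fold in replicate 1 was that of chr7:137919160-137942895 in 7q33, a band that carries the leucine zipper factor gene CREB3L2. It averaged 32.6 in replicate 1 and 24.1 in replicate 2, from regions of 59.1, 13.0, 51.7, 22.9 and 16.2 in replicate 1 and of 45.1, 13.1, 34.0, 16.8 and 11.7 in replicate 2. Also among the 5 highest by the mean of both replicates were chr14:80674795-80690903 in 14q31.1 with 29.1 and 24.8, chr6:1321864-1338492 in 6p25.3 with 26.1 and 27.8, and chr2:46526478-46557354 in 2p21 with 26.2 and 27.6. Band 14q31.1 carries DIO2, which encodes a thyroid hormone deiodinase, 6p25.3 carries the forkhead factor genes FOXQ1 and FOXC1, and 2p21 carries EPAS1, which encodes a hypoxia-inducible factor. The 2p21 group differed from the others named here in that all 6 of its regions had a mean fold of at least 18.7, above the median of all regions, 15.8. Their folds were at least 14.8 in replicate 1, where the median of all regions was 15.3, and at least 19.9 in replicate 2. Outside the 5 highest, the group chr5:158637111-158669732 in 5q33.3 was also strong throughout, with a mean fold of at least 19.8 at each of its 5 regions.

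The weakest groups were uniform. No region of the table had a mean fold below 8.73, so a low group mean leaves little room for a strong region. This uniformity is a description only. By the mean of the replicates, the lowest after the group of 1p22.1 was chr19:45946717-45971343 in 19q13.32, with 12.1 and 12.9 in replicates 1 and 2. Then came chr16:85013540-85048970 in 16q24.1 with 13.7 and 11.9, and chr9:131416064-131451082 in 9q34.11 with 12.6 and 13.7. The group chrX:9308644-9321071 followed with 12.4 and 14.4. Their ratios of strongest to weakest lay between 1.54 and 2.00, against a median of 2.62 over all groups. Low ratios were not confined to weak groups, since stronger groups in 11q22.1 and 5q33.3 had 1.42 and 1.43. Band 19q13.32 carries FOSB, a leucine zipper gene of the AP-1 family, and 9q34.11 carries LCN2, the gene of lipocalin 2, an iron-sequestering defence protein.

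Grouping did not go with exceptional strength. Of the 50 strongest regions of the table, 32 stood alone, 18 lay in groups of 2 to 4 and none lay in a group of 5 or more. These classes hold 59.4%, 37.6% and 2.93% of all regions, so the counts are near those shares. Of the 500 strongest, 13 were grouped. That is 1.73% of grouped regions, against 1.98% of regions in groups of 2 to 4 and 1.95% of single regions. They fell in 12 groups. Besides 7q33, Xp22.2, 14q31.1, 16q22.3 and 6p25.3, these included groups in 3q28, 7p21.1, 9q21.13, 11p13, 11q23.1 and 12p13.2. In 11p13, a band that carries the epithelial transcription factor gene EHF and the adhesion receptor gene CD44, the last region of chr11:34655191-34677124 had 41.8 and 52.4. The top decile by fold took in 10.5% of grouped regions, against 10.4% of regions in groups of 2 to 4 and 9.70% of single regions.

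Over all grouped regions the fold was a little above that of the rest, and the fragments more so. The median fold was 16.4 in groups of 5 or more, 15.6 in groups of 2 to 4 and 15.1 at single regions in replicate 1. In replicate 2 the order was the same, with 17.0, 16.3 and 15.8. The middle ranges overlapped almost wholly, with quartiles in replicate 1 of 11.6 and 23.7 in groups of 5 or more and of 10.9 and 22.2 at single regions. The slight excess in fold depended on how regions were chosen. Groups were also rebuilt from replicate 1 or replicate 2 alone, using its 25602 distinct peaks with the highest −log10 p. The ratio of medians between grouped regions and the rest was then 0.966 and 0.940 in place of 1.07. The part of this cut in the change was not tested. Median fragments were 76 in groups of 5 or more, 63 in groups of 2 to 4 and 54 at single regions in replicate 1, and 99, 82 and 72 in replicate 2.

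The background under the regions followed the same steps. Its median was 3.00 expected fragments in groups of 5 or more, 2.60 in groups of 2 to 4 and 2.00 at single regions in replicate 1, and 3.32, 3.00 and 2.34 in replicate 2. Regions whose background sat at the lowest value that the caller assigns made up 1.46% of regions in groups of 5 or more, 5.10% in groups of 2 to 4 and 13.8% of single regions in replicate 1, and 0.799%, 6.24% and 14.1% in replicate 2. Fragments and background thus moved together across the classes. Among regions with a mean background of 2 to 3 expected fragments, median fragments were 54 in groups of 5 or more, 53 in groups of 2 to 4 and 52 at single regions in replicate 1, and 73, 72 and 70 in replicate 2. At backgrounds of 4 to 6 they were 97, 101 and 101 in replicate 1 and 129, 122 and 123 in replicate 2. In these bins and at 3 to 4 the classes lay close together. Below 2 they were 37, 36 and 33 in replicate 1 and 51.5, 51 and 48 in replicate 2. At 6 or more, with 48 regions in groups of 5 or more, they were 127, 145 and 142 in replicate 1 and 154.5, 169 and 164 in replicate 2, with the lowest medians in groups of 5 or more. The part of the input signal in the grouping was not tested.

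**Figure D3:**
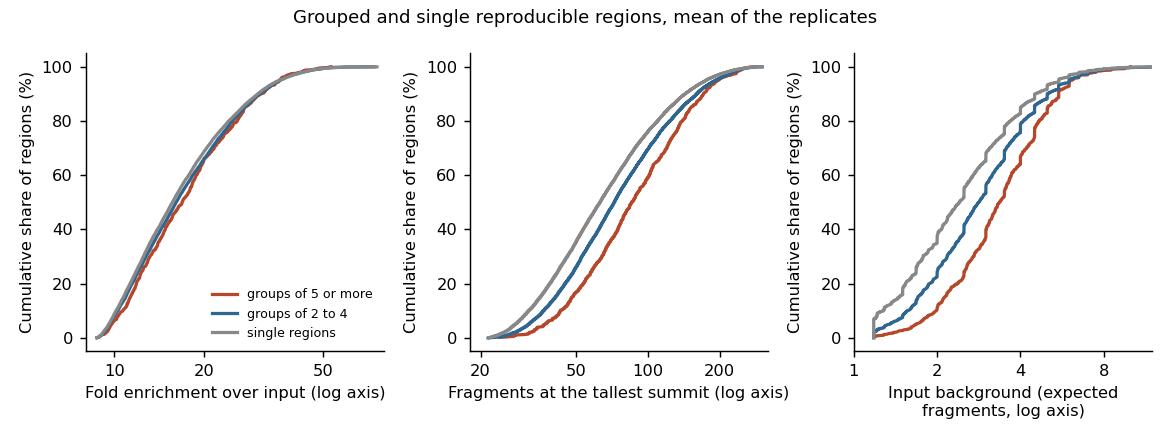
Cumulative share of regions (%) against fold over input, fragments at the tallest summit and input background in expected fragments (log axes, mean of the replicates), for groups of 5 or more, groups of 2 to 4 and single regions. The fold curves nearly coincide, whereas the curves of fragments and of background are shifted to the right for grouped regions.

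Regions in groups were also wider and more often compound. The median width was 475 bp in groups of 5 or more, 447 bp in groups of 2 to 4 and 404 bp at single regions. At least 2 summits in both replicates were found in 98 of 751 grouped regions (13.0%), against 9.60% of regions in groups of 2 to 4 and 6.73% of single regions. An IDR of at most 0.01 was reached by 493 grouped regions (65.6%), against 61.9% and 59.5%. All regions passed this limit in 17 of the 135 groups. Fragments were higher in these regions as well, and their part in width and summit number was not tested.

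Position within a group made little difference. The strongest region lay at an end of the group in 58 of 135 groups (43.0%), and end regions were 36.0% of all grouped regions. End regions had a median fold of 16.8 in replicate 1 and 17.8 in replicate 2, against 16.3 and 16.5 for inner regions. Median fragments were 73 and 101 at end regions and 77 and 97 at inner ones. In groups of exactly 5, the medians of the first to the fifth region ran from 14.9 to 17.4 in replicate 1 and from 15.7 to 17.8 in replicate 2, with no rise toward the centre.

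The replicates were then compared group by group. Summed fragments per group ranged from 189 to 1157 in replicate 1 (median 447) and from 244 to 1330 in replicate 2 (median 573), with a Spearman correlation of 0.949 over the 135 groups. For the mean fold of a group it was 0.661, close to the 0.639 for the fold of the 751 grouped regions. Sums depend on the number of regions, which the replicates share. The same region was the strongest of its group in both replicates in 72 of 135 groups (53.3%). The mean fold was higher in replicate 1 in 71 groups and in replicate 2 in 64. The largest discrepancy was in Xq13.1, where chrX:70734742-70767103 averaged 22.6 in replicate 2 and 13.8 in replicate 1, with backgrounds of 3.58 and 4.68. The opposite extreme was chr8:8116083-8146427 in 8p23.1, with 13.0 in replicate 2 and 19.3 in replicate 1 and backgrounds of 3.90 and 2.56. In both cases the replicate with the higher fold had the lower background.

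**Figure D4:**
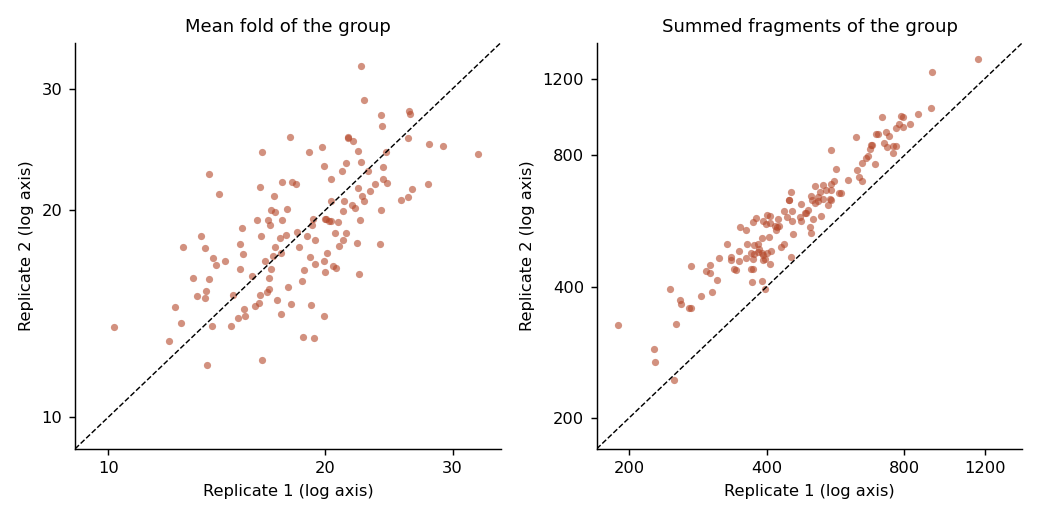
Mean fold (left) and summed fragments (right) of the 135 groups in replicate 2 against replicate 1, on log axes, with 1 point per group and the line of equality dashed. Summed fragments follow a narrow band with a Spearman correlation of 0.949, and mean folds scatter more widely at 0.661.

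To ask at which regions the libraries departed from each other beyond counting noise, fragments were compared region by region with two-sided exact binomial tests against the median share of replicate 2 among 1001 regions of like height, with Benjamini-Hochberg adjustment over all 25602 regions. At an adjusted p of at most 0.05, 9 of the 751 grouped regions differed (1.2%), against 2.9% of all regions. They lay in 9 different groups. More fragments in replicate 2 than the like regions had were found at 2 of them, with a background of 1.23% of all regions. More in replicate 1 were found at 7, with a background of 1.67%. The largest shift toward replicate 2 was at chr15:49366652-49367041 in 15q21.1, with 83 fragments in replicate 2 and 30 in replicate 1 (adjusted p = 0.0345, exact binomial test). The last region of chr11:63434315-63457103 in 11q13.1, chr11:63456731-63457103, had 163 in replicate 2 and 80 in replicate 1 (adjusted p = 0.0109, exact binomial test). The strongest call was chr10:47162694-47163000 in 10q11.22, with 71 in replicate 2 and 110 in replicate 1 (adjusted p = 0.00202, exact binomial test). These tests compare libraries and not conditions, allow for counting error only, and were run on regions chosen for matching ranks.

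Between the regions of a group lay weaker peaks that were called in one or both samples but did not enter the table. Their summits numbered 300 in replicate 1 and 346 in replicate 2 over 3.08 Mb of gaps, or 0.976 per 10 kb (95% Poisson interval 0.868 to 1.09) and 1.13 per 10 kb (1.01 to 1.25). In groups of 2 to 4 the gaps held 0.728 (0.697 to 0.760) and 0.840 (0.807 to 0.875) per 10 kb. The 12500 bp on each side of groups of 5 or more held 0.711 (0.624 to 0.807) and 0.930 (0.830 to 1.04), and the same stretch beside single regions held 0.361 and 0.475. Over all bases outside regions the density was 0.169 and 0.246. Weaker peaks were thus several times denser inside groups than in the genome at large, and the stretches just outside the groups were dense as well. The intervals cover counting error only, and summits near each other are not independent. The density changed with distance and was highest 500 to 1000 bp from the nearest region edge, at 1.33 and 1.39 per 10 kb within groups of 5 or more, and 0.683 and 0.804 around single regions.

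**Figure D5:**
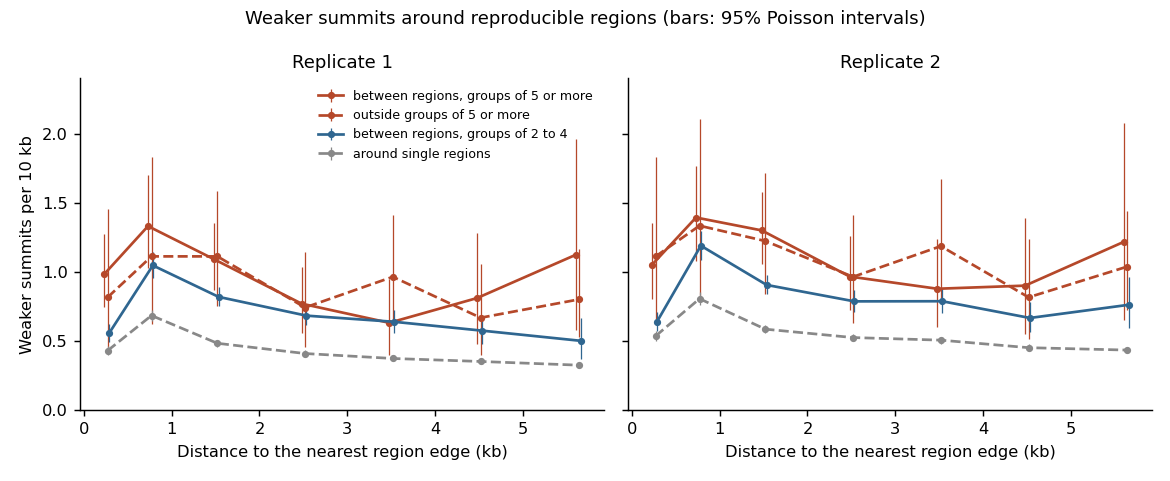
Weaker summits per 10 kb against distance to the nearest region edge in kb, for replicate 1 (left) and replicate 2 (right), with 95% Poisson intervals as bars. The gaps and the outer sides of groups of 5 or more lie above the gaps of groups of 2 to 4 and the surroundings of single regions at most distances, and all lines are highest or nearly so at 500 to 1000 bp.

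The weaker summits had a median fold of 5.27 in replicate 1 and 5.33 in replicate 2, on medians of 24 and 30 fragments. Few came near the regions: 2 in replicate 1 and 1 in replicate 2 passed the median fold of all regions. Of the summits in replicate 1, 76.7% belonged to a peak that overlapped one of replicate 2, and of those in replicate 2, 67.6% to a peak that overlapped one of replicate 1. Around single regions these shares were 73.0% and 56.3%. The density of weaker summits in a group had a Spearman correlation of 0.662 between the replicates over 135 groups, of -0.08 with the mean fold of the group and of 0.18 with its background. Groups dense in such summits in one sample thus tended to be dense in the other, though not in every case. The density of summits had almost no relation to mean fold.

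Single groups ranged widely in this respect. By the mean of the replicates the densest was chr19:14608318-14622075 in 19p13.12, where 5 weaker summits in replicate 1 and 3 in replicate 2 lay among 5 regions, or 4.53 and 2.72 per 10 kb. It was followed by chr11:63434315-63457103 in 11q13.1, with 7 in each replicate or 3.36 per 10 kb, and chr17:73069635-73097429 in 17q25.1, with 8 and 9 or 3.14 and 3.54 per 10 kb. In replicate 2 both of these were denser than the 19p13.12 group. The 17q23.1 group of 8 regions held the most in replicate 2, with 12, and 8 in replicate 1. At the other end, 8 groups had no weaker summit in either replicate. These included chr1:12640137-12664746 in 1p36.22, chr3:177527936-177555129 in 3q26.32 and chr5:93595028-93612842 in 5q15, and also the 16q22.3 group with its steep contrast of folds. The 3q26.32 group was among the strong ones, with mean folds of 27.7 and 21.8 over 6 regions. The density inside exceeded that of the 2 flanks in 84 groups in replicate 1 and 73 in replicate 2, and fell short of it in 46 and 58.

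Groups were found on every chromosome examined except 18, where none of 463 regions was grouped. Chromosome 1 had the most, with 16, followed by chromosome 9 with 12, chromosome 11 with 10 and chromosomes 8 and 17 with 9 each. Per length, chromosome 17 led with 1.11 groups per 10 Mb, then chromosome 20 with 0.952 and chromosome 9 with 0.850. The share of regions in groups was highest on chromosome 9, at 5.68%, and chromosome 20, at 5.12%, against 2.93% over all. On chromosome 9 this stood out from its overall density of 7.98 regions per Mb, which was below the 13.8 of chromosome 17. Chromosomes 13 and 21 had 1 group each.

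By Giemsa stain, 81 of the 135 groups (60.0%) lay in Giemsa-negative bands, the gene-rich light bands. These bands also held 13566 of all 25602 regions. The share of regions that were grouped was 3.29% in these bands and 3.94% in the lightest Giemsa-positive class, against 2.11% in the darkest. It did not fall steadily with stain, since the classes between had 1.68% and 2.87%. Centromeric bands, with 67 regions, held no group.

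Groups recurred in some bands. Bands with a single group numbered 89, those with a pair 17 and those with 3 groups 4. The bands with 3 were 9q34.11, 12q24.31, 15q21.1 and 17q11.2. In 12q24.31 the group of 6 regions chr12:122923306-122950832 lay 38461 bp after the group of 5 regions chr12:122851430-122884844, with mean folds of 26.0 and 20.9 in replicates 1 and 2 against 20.0 and 19.4. Over all chromosomes the next group lay within 50 kb in 4 cases and within 1 Mb in 19. Band 20q13.13, the location of the CEBPB gene, held a pair of rather weak groups. By the mean of the replicates, both had a mean fold below 16.2, the lower quartile of all groups. The group chr20:48295518-48326076 had 6 regions with mean folds of 14.1 and 16.7, and the group chr20:48636958-48650857 had 5 regions with 16.7 and 15.4. Band 3p25.2, which carries PPARG, a nuclear receptor gene of adipocyte and epithelial differentiation, also held a pair, chr3:12381557-12396488 with 24.3 and 21.9 and chr3:12735089-12762022 with 18.7 and 16.4.

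The highest input backgrounds among the groups were in 10q11.22, 14q23.1 and 14q32.2. In 10q11.22, chr10:47149933-47174394 had mean backgrounds of 6.47 in replicate 1 and 7.55 in replicate 2. In 14q32.2, chr14:96712550-96741309 had 6.51 and 6.57. Their regions were tall in fragments, with up to 247 and 262 in 10q11.22 and up to 271 and 292 in 14q32.2, but their mean folds of 20.0 and 16.3 and of 20.0 and 19.4 lay near the medians of all groups, 18.9 and 18.5. Across the 135 groups the summed fragments and the mean background had a Spearman correlation of 0.742, and mean fold and background one of 0.03. Groups share libraries and the same caller, and background enters the fold, so these are descriptions of the deposited values.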

How the data were processed

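Chromatin of NCM460 cells was sequenced after CEBPB ChIP (2 samples) and as input (2 samples). The submitters' processing notes give hg19, MACS2 2.1.2, bedtools 2.25.0, SAMtools 1.9, Bowtie2 2.3.4 and FastQC 0.11.7, with no settings. The deposited peak lists, called per sample, give each summit, in the MACS2 layout, a fold enrichment (a ratio over background) and its p-value and q-value as −log10. The sources used here do not give how inputs were paired or duplicates treated. The authors' deposited IDR table gave the intervals, and fold and p came from the peak lists; 2 of its columns, with values per replicate, were not used. Of its 27544 entries, 27305 lay on chromosomes 1 to 22 and X, and entries with the same interval were merged.

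Fragments and background were solved from fold (with the pseudocount of 1 that MACS2 adds) and the Poisson p. Scales of 0.927 and 0.800 per read gave whole pileups at 100% of summits in both replicates, within 0.005 on the −log10 p. The step was tested on simulated data. Total read numbers are not in the files, and the lowest backgrounds were 1.00 and 1.36. Reads are not independent molecules, so tests and intervals cover counting error only, and with 2 samples the spread between replicates rests on 1 pair.

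Bands came from circlize 0.4.16. Weaker summits are those of peaks that overlap no region by 1 bp. Groups were named by rule: all of 8 or more regions, the 5 highest and 5 lowest mean folds, and the 3 extremes of span, weaker summits, ratio and background; other groups named were chosen after their values were seen, and 1 group that the rule takes is not reported here. The members, lists and tests were chosen with earlier results of these data known. Alternatives were gap limits of 5 and 25 kb, distance between summits, IDR 0.01, other strength measures and single replicates. Computation used matplotlib 3.10.9, statsmodels 0.14.6, pandas 2.3.3, SciPy 1.17.1, NumPy 2.4.6 and Python 3.11.15. No sequence is shown because no genome of the files' build was used here.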

Additional observations from a re-analysis of the deposited data

Results flagged for a closer look

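A signal in data outside the chromosomes examined was that 2 further groups of 5 or more reproducible regions lay on other sequences of the build. The sequence gl000193, assigned to chromosome 4 without a position on it, held 9 regions between positions 80780 and 102119, with mean folds of 14.8 and 13.6 in replicates 1 and 2. Its median fragments were 84 and 141, over mean backgrounds of 4.66 and 6.73. An alternative haplotype sequence of chromosome 6, dbb, held 5 regions between positions 2043112 and 2051348, with mean folds of 26.1 and 27.7, median fragments of 88 and 78 and mean backgrounds of 2.24 and 2.08. Together they hold 14 of the 225 reproducible regions outside chromosomes 1 to 22 and X. Haplotype sequences repeat part of chromosome 6, so these 5 regions are not necessarily separate sites.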

How the results depend on the processing

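Groups follow from the gap limit. At 5 kb, 13 groups with 67 regions remained, with a median span of 13326 bp, a median gap of 2049.5 bp, a fold ratio to the rest of 1.14, 1.72 weaker summits per 10 kb and a strongest to weakest ratio of 2.29. At 25 kb the values were 467, 2801, 47799 bp, 7888.5 bp, 1.03, 0.842 and 2.78. At a global IDR of at most 0.01 they were 30, 157, 23467 bp, 5126 bp, 1.01, 1.24 and 2.18. Of the 751 regions of the main groups, 493 passed this IDR, and 3 of them differed between replicates in place of 9. Over all regions at this IDR, 353 of the 15504 tested differed. Distance between summits gave 124 groups with 684 regions, all among the 751. Groups built from a single replicate used its 25602 distinct peaks with the highest −log10 p. These gave 188 to 203 groups, 1085 to 1166 regions, spans of 22585 to 24254 bp and gaps of 3623 to 4180 bp. Their fold ratios were 0.940 to 0.966 and their strongest to weakest ratios 2.78 to 2.98. They gave background ratios to the rest of 1.24 to 1.28, against 1.35, and weaker summits of 1.02 to 1.08. Those of replicate 1 overlapped 107 of the 135 groups and those of replicate 2, 110. By −log10 p the fold ratio of 1.07 became 1.27 and the strongest to weakest ratio of 2.62 became 4.28, and by fragments the fold ratio was 1.28. Of weaker summits, 1.05 per 10 kb as the mean of the replicates, 0.810 had a −log10 q of 5 or more and 0.754 lay in peaks shared by both replicates. The cause was not tested. Of 49 alternatives, 36 moved a value by more than the replicate spread or a count by over 1.5 times. No paired analysis was possible because no groups of samples were tested against each other. Total read numbers are not in the files, so the effect of depth on weaker peaks was not tested.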
